A study of Mus musculus with 14 samples.

Results

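The cytosolic ribosomal proteins are the protein parts of the ribosomes that translate nuclear-encoded mRNAs. Their genes were taken by symbol, as every gene written Rps, Rpl or Rplp with a number and at most one closing a, l or x, together with Rpsa, where a probe set named that gene alone. The probe set with the highest mean log2 level over all arrays stood for each gene. This gave 46 genes, 22 of the small and 24 of the large subunit, among 18193 genes on the array. A further 28 such symbols, Rplp1, Rpl5 and Rpl10 among them, stood only in probe sets that name several genes and were not used.

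Gene expression was measured in livers of male CBA/J mice, an inbred strain, on Affymetrix arrays with 1 mouse per array, 7 on a diet with krill powder extract and 7 on the control diet. The animals, bought at 6 weeks of age, lived singly and ate a purified rodent maintenance formula, rationed at 84 kcal a week. Feeding of the krill or the control diet ran from 2 months of age for 3 months, and livers were collected at 5 months. Total protein and total lipid were equal in both diets, while the kinds of amino acids and fatty acids were not. In bulk liver RNA, fewer cells of a type and less RNA per cell cannot be told apart. Because each array holds another animal, p-values cover the spread between mice and arrays together.

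A cytosolic ribosome joins a small subunit, which reads the mRNA, to a large subunit, which forms the peptide bond and holds the tunnel through which the new chain leaves. The proteins coat and fold the ribosomal RNA, and cells need them in matched amounts, since unassembled copies are degraded or, in the case of a few, bind the p53 inhibitor Mdm2. Most of their mRNAs begin with a C followed by a stretch of pyrimidines, the terminal oligopyrimidine tract, through which MTOR and Larp1 set their translation to nutrient supply. In liver, ribosomal protein synthesis follows feeding and dietary protein.

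All 8 hepatocyte markers had signal, with Alb, the serum albumin, at a median of 92306 in krill and 64546 in control livers. The krill arrays stood apart in measures of array quality. Hybridisation spike-ins, control RNAs added in fixed amount, averaged 12.93 to 14.35 on the log2 scale in krill arrays, with krill replicates 2, 4, 5 and 7 at 14.13 to 14.35, against 12.60 to 13.23 in control arrays. The ratio of 3' to 5' signal, which grows as RNA is shortened, was 2.48 to 3.79 for actin in krill arrays and 1.78 to 2.44 in control arrays, and for pyruvate carboxylase 11.6 to 25.7 in krill and 4.49 to 10.7 in control arrays. In both ratios every krill array lay above every control array. Because of their spike-in level, results are also given without krill replicates 2, 4, 5 and 7, a step that leaves the difference in 3'/5' ratios in place, since krill replicates 1, 3 and 6 also exceeded all controls in both.

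Ribosomal protein transcripts were mostly higher in krill livers. Of the 42 genes bright enough to be tested, 28 were higher, 3 were lower (Rpl7, Rps4x and Rplp0) and 11 did not pass (limma, Benjamini-Hochberg adjusted p under 0.05 over 11308 genes). Over all tested genes 22.9% were higher and 24.8% lower by the same test. The median log2 change, krill minus control, was 0.90 over the 42 genes and 0.04 over all genes. The 28 genes that were higher changed by 0.48 to 1.82 on the log2 scale, or 1.40-fold to 3.52-fold. For 17 of the 42 genes all 7 krill arrays exceeded all 7 control arrays, as was so for 6.52% of all tested genes, and for 1, Rps4x, all krill arrays were below, against 7.61%. A gene can pass the brightness filter through the diet in which it is higher. With no filter, 25 of the 46 genes were higher and 3 lower, against 20.4% and 15% of 18193 genes, with a median of 0.72 over the 46 and 0.32 over all genes. Among the brightest 10% of probe sets, 24 of 36 were higher and 3 lower, against 33.6% and 27.1% of 2840 genes.

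These counts moved with the arrays and the scaling. Without krill replicates 2, 4, 5 and 7, 24 of the 42 genes were higher and 2 lower, against 12.7% and 19.6% of all genes, and 23 of the 24 were also higher with all arrays. The median was then 0.55. Rps6, Rps28, Rps29, Rplp2 and Rpl39 no longer passed, and neither did the fall of Rplp0. Quantile normalization gave 23 higher and 5 lower, against 24.3% and 22.4% of all genes. With arrays centred on their own medians, 20 genes were higher and 5 lower, against 8.87% and 32.9%, and with arrays scaled to the spike-ins 10 were higher and 8 lower, against 2.64% and 49%. Those last scalings moved the median of all genes to -0.36 and -0.75, a shift that is the same for every gene of an array and so leaves the ribosomal median relative to all genes at 0.86 by construction. That relative median was 0.37 after quantile normalization, 0.40 with no filter, 0.59 with the spike-in level as a covariate and 0.59 without krill replicates 2, 4, 5 and 7. Adding an index of the 3'/5' ratios to the limma model left 0 genes past the threshold, ribosomal or other (0% in each direction), with 1873 of 11308 genes and 6 of the 42 at an unadjusted p under 0.05. All 6 were higher, 35 of the 42 had a positive change and the median was 0.65. The median standard error was 0.44 in that model, against 0.21 without the index. Since the ratios do not overlap between the diets, that index and the diet can hardly be told apart.

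**Figure D1:**
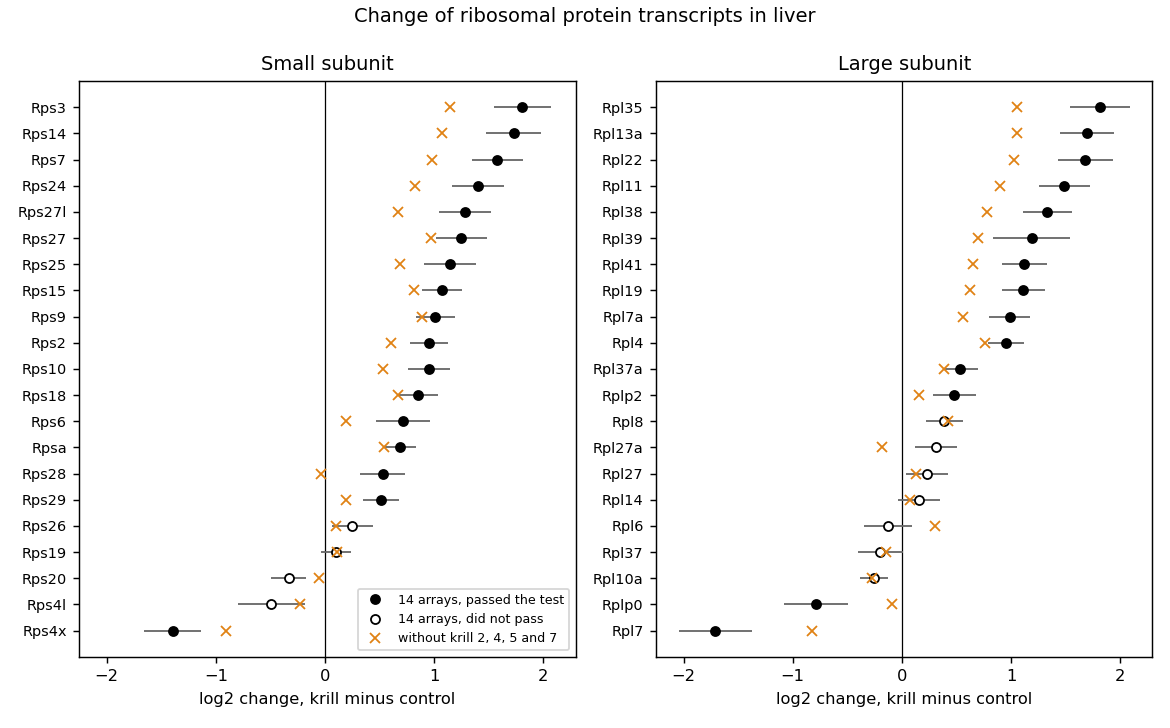
Log2 change (krill minus control) of the 42 tested ribosomal protein genes by subunit, with the moderated standard error as bars; filled circles passed the limma test with all 14 arrays, open circles did not, and crosses give the change without krill replicates 2, 4, 5 and 7. Filled circles to the right of zero number 16 in the small and 12 in the large subunit, and Rps4x, Rplp0 and Rpl7 lie to the left.

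The start regions of some of these genes are shown because the tract at the start of the mRNA is what the family is best known for. Of the 46 genes, 40 had a window in the RefSeq promoter table of GRCm38.p6, with 48 windows in all, each from 250 bases before to 50 bases after an annotated start. The lines below print 20 bases on each side of the start on the transcribed strand, 5′ to 3′, with every unbroken run of 8 or more C or T in capitals. The first 4 genes have the largest rises among higher genes whose first listed window held such a run, with Rps14 left out of the choice. The last 2 were lower in krill livers.
Rpl35, chr2:39005112-39005151, minus strand: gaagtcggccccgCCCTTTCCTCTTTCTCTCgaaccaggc
Rpl13a, chr7:45128726-45128765, minus strand: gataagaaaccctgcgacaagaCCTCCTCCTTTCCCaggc
Rps24, chr14:24490658-24490697, plus strand: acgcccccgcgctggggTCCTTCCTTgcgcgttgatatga
Rpl38, chr11:114668560-114668599, plus strand: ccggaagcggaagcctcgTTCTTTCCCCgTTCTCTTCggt
Rps4x, chrX:102189372-102189411, minus strand: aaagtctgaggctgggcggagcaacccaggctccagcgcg
Rplp0, chr5:115559447-115559486, plus strand: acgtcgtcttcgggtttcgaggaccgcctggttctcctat
The longest run was 18 bases in Rpl35, 14 in Rpl13a, 10 in Rpl38 and 9 in Rps24, against 7 in Rplp0 and 4 in Rps4x, a contrast that the choice of genes sets. A run of 8 or more stood in 16 of 30 windows of genes higher in krill livers (53.3%), in 3 of 18 windows of the other members (16.7%) and in 16.05% of 32851 windows of all genes. Such a run could lie anywhere in the 40 bases around the start, so it need not be the tract that begins the mRNA. Shorter runs, such as the 7 bases of Rplp0, were not counted. The other members pool genes that were lower, did not pass or were not tested. Several windows belong to 1 gene in 7 cases, and the annotated start need not be the one used in liver. The shares are a description without a test.

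A second short sequence was searched over the whole windows. CCGGAAG, the core bound by ETS-family factors, or its reverse complement CTTCCGG, is printed in capitals in these 40-base stretches from 4 genes. They have the largest rises among higher genes whose first listed window held a match in a stretch before the start. Rps14 was again left out of the choice. The sequences are again from RefSeq on GRCm38.p6 and 5′ to 3′ on the transcribed strand.
Rpl35, chr2:39005235-39005274, minus strand: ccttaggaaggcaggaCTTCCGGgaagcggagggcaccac
Rps7, chr12:28635944-28635983, minus strand: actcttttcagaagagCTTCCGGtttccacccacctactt
Rpl38, chr11:114668544-114668583, plus strand: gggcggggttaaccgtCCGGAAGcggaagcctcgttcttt
Rps25, chr9:44407625-44407664, plus strand: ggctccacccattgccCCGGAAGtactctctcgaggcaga
The first capital lies 127, 14, 20 and 73 bases before the start in these genes. The 300-base windows held the motif on either strand in 15 of 30 cases for genes higher in krill livers (50%), in 5 of 18 for the other members (27.8%) and in 8.86% of all windows. CTTCC can also form part of a C or T run, so the searches can overlap. A match describes letters in a window and not a bound site.

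In the small subunit, 16 of 21 tested genes were higher, 1 was lower and 4 did not pass, with a median log2 change of 0.95, where 22.9% of all tested genes were higher and 24.8% lower. Rps3, which lies where the mRNA enters and also acts in DNA repair, had lowest, median and highest signals of 37362, 86716 and 124014 in krill livers, against 14073, 22216 and 30712 in control livers. The groups did not overlap, and krill replicates 2, 4, 5 and 7 were the highest of all arrays. The log2 change of Rps3 was 1.81 (SE 0.26, limma adjusted p = 4.94e-05). Rps14, whose loss from one chromosome underlies a form of human anaemia, had signals of 48432, 113794 and 145724 in krill and 20443, 30172 and 41761 in control livers, again with no overlap, and changed by 1.73 (SE 0.25, limma adjusted p = 5.11e-05). Rps7, a ribosomal protein that can bind Mdm2, had signals of 48623, 105293 and 135175 in krill and 21452, 30537 and 39437 in control livers. It showed the same separation, with a log2 difference of 1.58 (SE 0.23, limma adjusted p = 5.47e-05). Rps24, mutated in some cases of the inherited Diamond-Blackfan anaemia, changed by 1.40 (SE 0.24). Its lowest krill signal of 32824 lay under its highest control signal of 35048. Rps27l, a paralogue of Rps27 that p53 induces in human cells, changed by 1.29 (SE 0.24) with overlapping groups.

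Of the next genes of the small subunit, Rps27 and Rps25 had dim probe sets. The signal of a single probe set does not tell how much of one mRNA is present beside another. Rps27, a zinc finger protein, had signals of 860.4, 1101 and 1920.2 in krill livers, against 329.8, 598 and 857 in control livers. Each krill array exceeded each control array, by a narrow margin, and the log2 change was 1.25 (SE 0.24, limma adjusted p = 0.000434). Rps25, which some viral mRNAs need to start translation, had signals of 260.1, 416 and 699 in krill and 124, 199 and 256 in control livers, without overlap, and changed by 1.14 (SE 0.24, limma adjusted p = 0.000972). Rps15, a protein close to the decoding centre and needed for export of the small subunit from the nucleus, separated the groups too and changed by 1.07 (SE 0.18, limma adjusted p = 0.000168). Without krill replicates 2, 4, 5 and 7 these 8 genes stood between 0.67 (Rps27l) and 1.15 (Rps3), and all 8 passed (limma adjusted p from 0.00186 to 0.04).

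Rps6, the protein that S6 kinase phosphorylates downstream of MTOR, had signals of 229, 453 and 629 in krill livers, against 169.7, 229 and 348 in control livers. The groups overlapped, and the log2 change was 0.72 (SE 0.25, limma adjusted p = 0.023). Without the 4 arrays it was 0.19, short of the threshold (limma adjusted p = 0.597), and without krill replicate 5 alone it was 0.64 (limma adjusted p = 0.050002) and without control replicate 2 alone 0.63 (limma adjusted p = 0.051). Rpsa, also known as the laminin receptor, had signals of 17767, 20954 and 25463 in krill livers, against 10328, 13059 and 16780.2 in control livers. Its groups did not overlap. Its log2 change of 0.68 (SE 0.15, limma adjusted p = 0.00147) stood at 0.54 without the 4 arrays and passed there too (limma adjusted p = 0.018). The remaining genes higher in krill livers were Rps9, Rps2, Rps10, Rps18, Rps28 and Rps29, at 0.51 to 1.01. Of these Rps28 stood at -0.04 and Rps29 at 0.20 without the 4 arrays, and neither passed (limma adjusted p = 0.838 and 0.308). The call of Rps28 was also lost in 11 of the 14 fits that leave out one array, those without krill replicate 2, 4, 5 or 7 or any control.

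**Figure D2:**
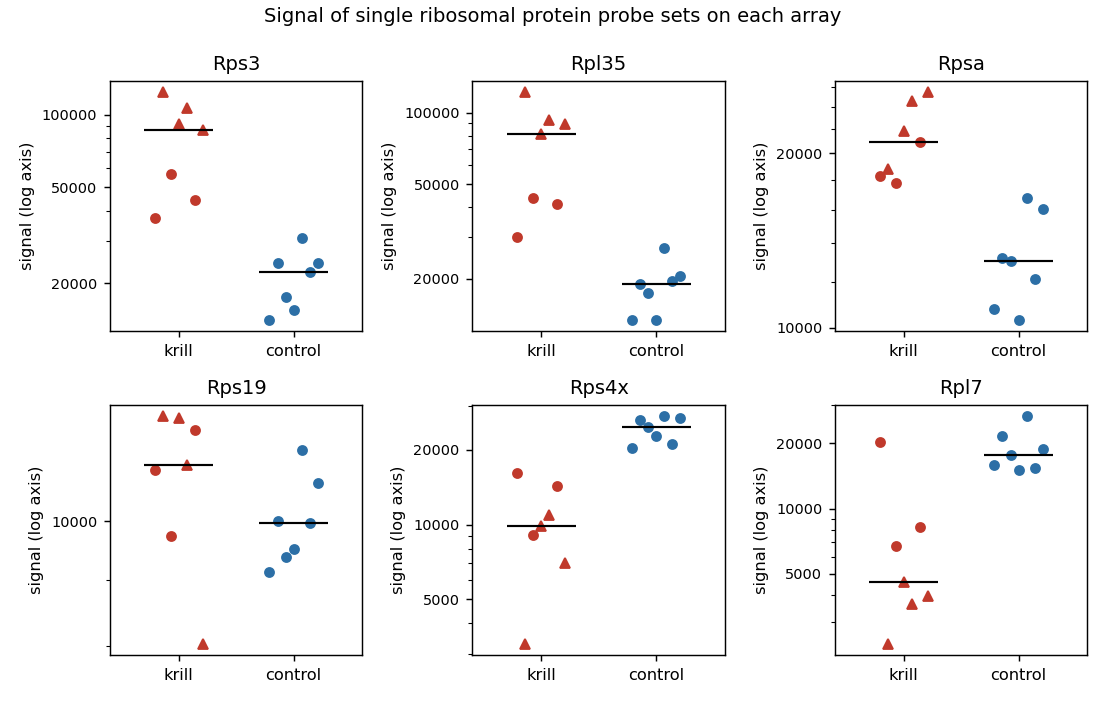
Signal (log axis, arbitrary units of the deposited table) of 6 ribosomal protein genes on each array, krill left of control, with the median as a bar; triangles are krill replicates 2, 4, 5 and 7. Rps3, Rpl35 and Rpsa separate upwards in krill livers, Rps19 overlaps, Rps4x separates downwards, and in Rpl7 one krill array lies among the controls.

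In the large subunit, 12 of 21 tested genes were higher, 2 were lower and 7 did not pass, with a median log2 change of 0.54, beside the same 22.9% and 24.8% of all tested genes. Rpl35, which sits at the mouth of the exit tunnel, had signals of 29893, 81088 and 121589 in krill livers, against 13444, 19001 and 26879 in control livers. The groups did not overlap, and the log2 change was 1.82 (SE 0.27, limma adjusted p = 6.78e-05). Rpl13a, which in human cells leaves the ribosome after interferon gamma to silence inflammatory mRNAs, had signals of 55785, 126949 and 169861 in krill and 23384, 34726 and 49291 in control livers, without overlap. All 4 of its probe sets were higher, at 1.70 to 2.24, and the brightest gave 1.70 (SE 0.25, limma adjusted p = 5.47e-05). Rpl22, dispensable for most cells and needed for T cell development in mice, changed by 1.68 (SE 0.25, limma adjusted p = 6.78e-05). In a fit over 19246 probe sets, another one of Rpl22 was higher at 2.10. The dimmest of the 3 stood at -0.19 and missed the threshold there (limma adjusted p = 0.549). Rpl11, which with Rpl5 binds Mdm2 when ribosome assembly fails, had signals of 29833, 65576 and 89537 in krill livers, against 14144, 20280 and 27529 in control livers. Every krill array was above every control array for both Rpl22 and Rpl11, and Rpl11 changed by 1.49 (SE 0.23, limma adjusted p = 0.000102).

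Rpl38, the gene lost in the Tail-short mouse, whose skeleton is mispatterned, had signals of 42677, 89620.1 and 150433 in krill livers, against 26419.9, 32675 and 41585 in control livers. The groups were separate, and the log2 change was 1.33 (SE 0.22, limma adjusted p = 0.000169). Rpl41, the smallest ribosomal protein, changed by 1.12 (SE 0.21) with overlapping groups, and Rpl19, which reaches across to the small subunit, by 1.11 (SE 0.19) with separate groups. Rpl39, a short protein that lines the exit tunnel, had signals of 389, 1051 and 2018 in krill livers, against 139, 419 and 687 in control livers. Its groups overlapped widely. The change of 1.19 (SE 0.35, limma adjusted p = 0.00994) was 0.69 without krill replicates 2, 4, 5 and 7 and missed the threshold (limma adjusted p = 0.166). The other 7 of these 8 genes stood between 0.62 and 1.06 without those arrays and passed. Rpl7a, Rpl4 and Rpl37a were also higher, at 0.99, 0.95 and 0.54.

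The stalk of the large subunit recruits elongation factors. With all arrays its Rplp0 was lower and its Rplp2 higher, and neither passed without krill replicates 2, 4, 5 and 7. Rplp0, the base on which the acidic stalk proteins sit, had signals of 3759, 14049 and 21054 in krill livers, against 17338, 21015 and 24420.3 in control livers. Krill replicates 2, 4, 5 and 7 lay below every control array and the other 3 within the control range, and the log2 change was -0.79 (SE 0.29, limma adjusted p = 0.0327). It stood at -0.09 without krill replicates 2, 4, 5 and 7 (limma adjusted p = 0.635), and leaving out krill replicate 2 or 5 or control replicate 3, 6 or 7 alone also ended the call (limma adjusted p from 0.0532 to 0.066). Rplp2, one of the acidic stalk proteins, had signals of 19544, 28646 and 50710.1 in krill livers, against 19296, 21832 and 24367 in control livers. Its groups overlapped, and its change of 0.48 (SE 0.20, limma adjusted p = 0.049) was 0.15 without the 4 arrays and missed the threshold (limma adjusted p = 0.423). It passed in only 3 of the 14 fits that leave out one array, with changes of 0.36 to 0.59 over all 14.

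Rps4x and Rpl7 were the clearest falls. Rps4x, the X-linked form of a protein that in humans also has a copy on the Y chromosome, had signals of 3316, 9851 and 16191 in krill livers, against 20301, 24697 and 27353 in control livers. Each krill array was under each control array, and the log2 change was -1.40 (SE 0.26, limma adjusted p = 0.000364), or 2.63-fold lower. Without the 4 arrays it was -0.91 (limma adjusted p = 0.00181). Rpl7, a core protein of the large subunit, had signals of 2385, 4587 and 20264 in krill livers, against 15072, 17733 and 26737 in control livers. One krill array, replicate 1, lay within the control range and the other 6 lay below it. The log2 change of Rpl7 was -1.71 (SE 0.33, limma adjusted p = 0.000554), and -0.82 without the 4 arrays (limma adjusted p = 0.0326). All 3 probe sets of Rpl7 were lower, at -1.71, -2.58 and -2.13. With the spike-in level as a covariate Rps4x was the only ribosomal gene still lower.

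Among the 11 genes that did not pass, changes ran from -0.49 to 0.39. Rps19, the gene most often mutated in Diamond-Blackfan anaemia, had signals of 8033, 11069 and 12078 in krill livers, against 9133, 9979.6 and 11368 in control livers, and changed by 0.10 (SE 0.13, limma adjusted p = 0.543). Rpl14 had signals of 236, 274 and 488 in krill and 229, 274 and 338 in control livers and changed by 0.16 (SE 0.19, limma adjusted p = 0.511). For both the medians lay close together. Rpl6, a large-subunit protein also recruited to damaged DNA in human cells, changed by -0.13 (SE 0.22, limma adjusted p = 0.651) and by 0.30 without the 4 arrays. Rpl8, the protein near the catalytic centre, changed by 0.39 (limma adjusted p = 0.0629) and passed without the 4 arrays at 0.42 (limma adjusted p = 0.026).

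Probe sets of 1 gene did not always move together. The 46 genes had 100 probe sets, of which 85 passed the filter, and 54 of these were higher and 6 lower, against 19.1% and 26.3% of 19246 probe sets tested. Of 19 genes with several such probe sets, 9 had the same call in all. For Rps3, 2 dim probe sets stood at 0.83 and 0.04 and missed the threshold, and for Rpl35 5 of 6 were higher, the dimmest standing at 0.63. Rps20, a protein of the small subunit's head, was the one gene with calls in both directions. In the fit over these 19246 probe sets, its brightest changed by -0.33 and missed the threshold (limma adjusted p = 0.106). Another bright one was lower at -0.66, and 2 dim ones were higher at 1.64 and 1.01. For Rps24, 4 bright probe sets were higher at 1.37 to 1.46 and a dim one stood at -0.86 (limma adjusted p = 0.0553). The bright probe sets of both genes carry the suffix _x_at, which Affymetrix gives to sets with probes that can match other transcripts. Ribosomal protein genes have many near-identical pseudogenes. The sets that stood for Rpl35, Rpl13a, Rps14, Rpl38, Rpl41, Rps27l and Rpl7 also end in _x_at. Rps14 had no other kind, so it has no value with these sets left out. Of 38 _x_at sets of the family past the filter, 26 were higher, against 24.6% of all 1278 such sets. For sets ending in _at, 9 of 18 were higher, against 18.8%. With sets ending in _x_at and _s_at left out, 35 genes were tested, of which 21 were higher and 3 lower, against 22.1% and 25.3% of 10903 genes.

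The changes varied with brightness, in bins chosen after the values were seen. Of the 19 genes with a mean log2 level of 15 or more, 19 were higher, with a median change of 1.29. In this bin 68.6% of all tested genes were higher too, and the 121 genes that are not ribosomal had a median of 0.64. Between 14 and 15, 5 of 7 ribosomal genes were higher, against 44.9% of all genes. Between 12 and 14, none of 8 was higher and 3, the falls named above, were lower, with a median of -0.19, while 35.9% of all genes were higher. Under 12, 4 of 8 were higher (Rps27, Rpl39, Rps25 and Rps6), against 20.8%. The part of brightness in these changes was not tested.

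**Figure D3:**
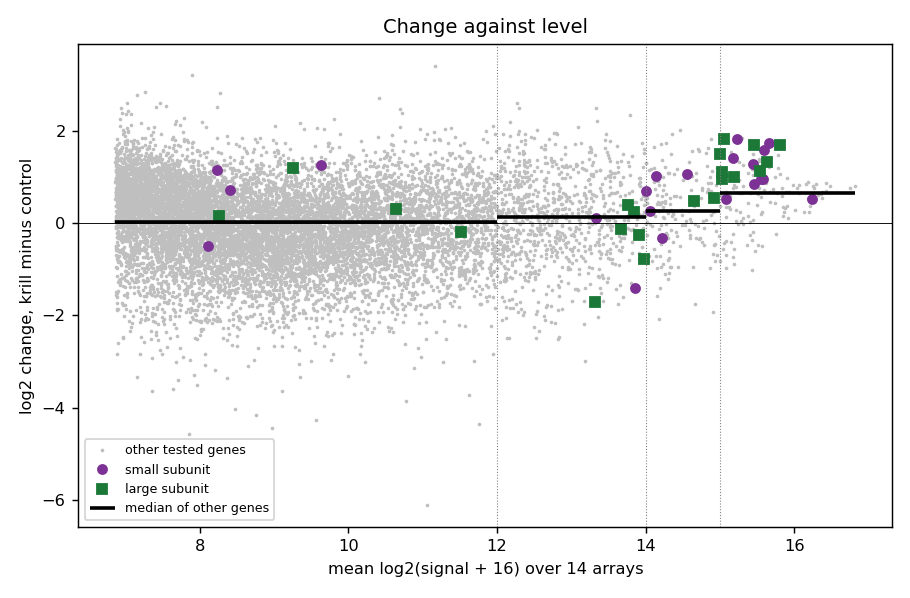
Log2 change (krill minus control) against mean log2(signal + 16) over 14 arrays for all tested genes (grey), with small-subunit (circles) and large-subunit genes (squares); black bars are medians of the other genes in each bin. The 19 ribosomal genes at 15 or more all lie above zero, where the other genes have a median of 0.64, and the 3 falls lie between 12 and 14.

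Array by array, both subunits were higher in krill livers and the small subunit slightly more so, a description with no test. The mean log2 level of the 42 tested genes, set against the control mean, was 0.27, 1.03, 0.54, 0.91, 0.97, 0.47 and 0.48 in krill replicates 1 to 7, and -0.23 to 0.23 in control arrays. Every krill array was above every control array. The mean over the small subunit minus that over the large subunit was 0.08 to 0.33 in krill arrays and -0.05 to 0.03 in control arrays, with krill replicates 1, 3 and 6 at 0.08 to 0.09 and krill replicates 2, 4, 5 and 7 at 0.11 to 0.33. Its mean was 0.15 ± 0.10 (SD, n = 7) in krill arrays. The medians of the gene changes, 0.95 in the small and 0.54 in the large subunit, differed by 0.41, and by 0.03 after quantile normalization and 0.19 without the 4 arrays. Ribosomal genes also varied more between krill mice, with a median SD of 0.51 on the log2 scale, against 0.25 between control mice, as did all genes at 0.55 in krill and 0.29 in control livers.

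**Figure D4:**
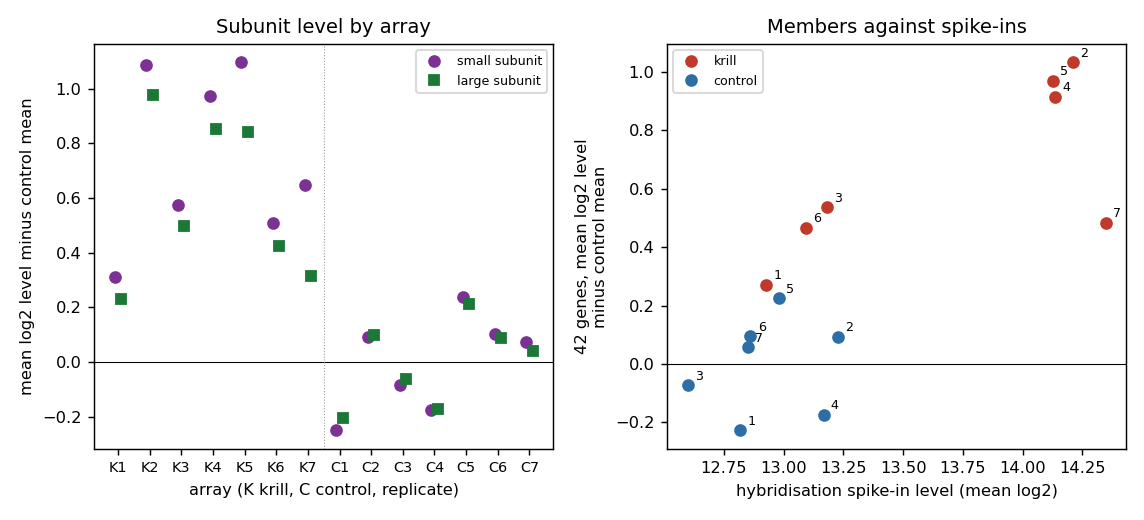
Left, mean log2 level of the 21 small-subunit (circles) and 21 large-subunit genes (squares) on each array minus the control mean, krill arrays left of control arrays. Right, the mean over all 42 tested genes against the mean log2 level of the hybridisation spike-ins; krill replicates 2, 4, 5 and 7 lie at 14.13 or more, and all 7 krill arrays lie above the control arrays on the vertical axis.

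Genes whose products work with the cytosolic ribosome were counted beside 22.9% higher and 24.8% lower of all tested genes, and, without krill replicates 2, 4, 5 and 7, beside 12.7% and 19.6%. Of the genes outside the symbol rule whose products sit in or on the ribosome, 3 of 3 tested were higher. They were Rpl22l1, the paralogue of Rpl22, at 2.01, Fau, which encodes a small-subunit protein fused to a ubiquitin-like part, at 1.09, and Rpl7l1 at 0.52. A further list joined translation elongation and termination genes with other mRNAs known to carry the oligopyrimidine tract. Its counts are therefore not those of mRNAs with the tract alone. Of this list 8 of 22 tested were higher and 7 lower, with a median of -0.06. Without the 4 arrays 8 were higher and 5 lower, with a median of 0.26. The exchange factor subunit Eef1b2 was higher at 1.49, the initiation factor subunit Eif3e at 1.68 and Tpt1, a growth-related protein, at 0.85. The translocase Eef2 was lower at -1.68, the poly(A)-binding protein Pabpc1 at -1.82 and Npm1, a nucleolar chaperone, at -1.06. Eef1a1, which brings aminoacyl-tRNA to the ribosome, stood at -0.48, short of the threshold (limma adjusted p = 0.151).

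Ribosome biogenesis genes gave 12 higher and 16 lower of 65 tested, close to the shares over all genes, 22.9% and 24.8%, with a median of -0.08. Without the 4 arrays they gave 10 higher and 7 lower, with a median of 0.02. Nip7 and Sbds, which act in maturation of the large subunit, were higher at 1.24 and 0.76, and the nucleolar protein Ncl was lower at -1.68. Of the genes of RNA polymerase I and 5S RNA transcription 5 of 20 were higher and 3 lower, and 2 were higher and 3 lower without the 4 arrays. Of MTOR, S6 kinase, MYC and p53 pathway genes 4 of 21 were higher and 7 lower, with a median of -0.44, and 2 were higher and 7 lower without the 4 arrays. These counts stand beside 22.9% higher and 24.8% lower of all genes, and 12.7% and 19.6% without the 4 arrays. In the last list the share of lower genes was above that of all genes in both fits. Its median was -0.48 without the 4 arrays, against -0.04 over all genes. Both lists are small, and the differences were not tested. Tsc2, an inhibitor of MTOR signalling, had a median signal of 40.2 in krill and 654 in control livers and was lower at -3.01. Eif4ebp2, a repressor of initiation, was lower at -1.70. Both were picked from the 7 lower genes after their values were seen. The 4 higher genes of the list are not named, so these 2 genes do not stand for the list. Mtor itself changed by -0.29 and did not pass, and activity of the pathway was not tested. Mitochondrial ribosomal proteins, a separate family, had 39 of 76 genes higher and 15 lower, with a median of 0.53, against 22.9% and 24.8% of all genes. Without the 4 arrays 43 were higher and 4 lower, with a median of 0.53, and with spike-in scaling the median was -0.26, against -0.75 for all genes.

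Markers of liver cell types were counted against the same 22.9% higher and 24.8% lower of all tested genes. Of the hepatocyte markers 5 of 8 were higher and 1, Tat, lower, with summed signals of 397939 to 851761 in krill and 308988 to 445756 in control arrays, and none passed in either direction without the 4 arrays. Sums cover every listed marker with a probe set, tested or not. Macrophage markers had 2 of 7 tested higher and 2 lower, with sums over 8 genes of 9555 to 17566 in krill and 8143 to 10998 in control arrays. Lymphocyte markers had 1 of 3 tested higher, with sums over 6 genes of 714 to 1548 in krill and 542 to 801 in control arrays. Endothelial markers gave 1 higher and 1 lower of 5, with sums of 4455 to 13033 in krill and 7863 to 9090 in control arrays. Stellate markers gave 1 higher and 2 lower of 6, with sums of 11687 to 16496 in krill and 12475 to 17459 in control arrays. The single cholangiocyte and erythroid markers tested did not pass. Their part in the ribosomal changes was not tested.

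The 4 genes that did not reach the filter were Rps16, Rpl12, Rpl3l and Rpl39l. Rpl3l, the muscle form of Rpl3, had median signals of 19.9 in krill and 48.5 in control livers, and Rpl39l, the testis form of Rpl39, 11.8 in krill and 11.8 in control livers. Rpl12 had a median of 60.5 in krill and 107 in control livers, and Rps16 had 5.68 in krill and 2.36 in control livers. The groups overlapped for all 4. These signals are those of single probe sets and say nothing of how much of a protein's mRNA is present beside another's.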

How the data were processed

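Liver RNA of 14 mice was measured as biotin-labelled cRNA, per the labels' protocols. The deposited table holds a linear intensity for each probe set, made with MAS5 per the submitters' processing notes (version not given in the sources used here). Trimmed of 2 percent of probe sets at each end, the deposited intensity averaged 500.00 on all arrays, and the distributions had not been made equal. Detection calls and scanner files were not used here. The depth of an array has no read count, so the number of arrays limits the precision.

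Sample titles gave the groups and replicate numbers. Of 45101 probe sets 64 were controls, and the platform table paired 34945 with 1 gene symbol, 932 with several and 9160 with none, and only the first kind was used. From the deposited intensity, log2(signal + 16) was computed, which understates the changes of dim genes. The brighter 50% of probe sets by mean log2 value were kept, and the one with the highest mean stood for each of 11308 genes. Krill was compared with control by lmFit and eBayes (trend on, no covariate) of limma 3.58.1 under R 4.3.3, with Benjamini-Hochberg adjustment over all tested genes and a threshold of 0.05. The procedure was also run on simulated data. Their noise was drawn for each probe set alone at the spread of the control arrays, so array-wide differences were no part of that check. Array measures used 18 hybridisation spike-in probe sets and the 3' and 5' control pairs of actin and pyruvate carboxylase. Motif searches ran in Python 3.11.15 with pandas 2.3.3, and figures were drawn with matplotlib 3.10.9.

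The members, the gene lists and the arrays left out were chosen with earlier results of these data known, so the rise of the family is described here and is not independent support for earlier results. The genes named are the called falls, the 8 largest called rises of each subunit, the 3 smallest changes that did not pass, genes with probe sets called both ways and a panel fixed by role. Of that panel Rplp1, Rps27a, Rpl5, Rpl10, Rpl26 and Rpl10l had no probe set of their own. Rps28, Rps29, Rpl8, Rpl12, Rps16 and the other genes named only in passing, and those named from the pathway lists, were chosen after their values were seen. No sequence of Rps14 or Rpl7 is printed. Alternatives were other pseudocounts, scalings, filters, probe set choices and limma settings, the replicate number as a block, array measures as covariates, and arrays left out singly or as a set of 4.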

Additional observations from a re-analysis of the deposited data

Results flagged for a closer look

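In 1 of 66 sets of 7 arrays examined, one array stood far from the others. The log2 level of Rpl39 in control replicate 7 was 7.28, and the nearest of the other control arrays stood at 8.75. The gap was 0.674 of the range of the control arrays, past the limit set for groups of 7, which chance alone exceeds in about 1 of 20 groups. Without control replicate 7 Rpl39 still passed the limma test, as it did without each other array in turn, with log2 changes of 0.96 to 1.39.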

How the results depend on the processing

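The numbers of the 42 tested ribosomal genes higher and lower were 28 and 3 with all arrays, and 25 to 29 and 2 to 4 when 1 array was left out. Over those fits the median change was 0.79 to 0.96 for the family, 0.83 to 1.06 for the small and 0.46 to 0.63 for the large subunit, the subunit difference was 0.33 to 0.46 for medians and 0.12 to 0.16 for means, and 2206 to 3125 of all genes were higher and 2428 to 3022 lower. Quantile normalization gave 5 lower, where 22.4% of all genes were lower. Its medians were 0.40 and 0.42 for the family and the small subunit, with a difference of medians of 0.027. Centring on array medians gave 5 lower, where 32.9% of all genes were lower, and 1003 genes higher in all. Its medians were 0.50, 0.55 and 0.13 for the family, the small and the large subunit. Spike-in scaling gave 10 higher and 8 lower, medians of 0.11, 0.16 and -0.25, and 299 genes higher and 5541 lower in all. The spike-in level as a covariate gave 1 lower, medians of 0.53 and 0.54 for the family and the small subunit, differences of 0.064 and 0.070 for medians and means, and 790 higher and 1188 lower in all. The 3'/5' index as a covariate gave 0 higher and 0 lower among ribosomal and all genes (limma, 1873 genes at an unadjusted p under 0.05), medians of 0.65 and 0.69 and differences of 0.042 and 0.046. Without krill replicates 2, 4, 5 and 7 the medians were 0.55 and 0.60, the difference of medians 0.19 and 1438 genes were higher in all. The difference of means was 0.23 both with no signal filter and with probe sets averaged per gene, and the upper 10% of signal gave 955 higher and 771 lower of 2840 genes. Signs turned for Rps19 with quantile normalization (-0.078), centring (-0.30) and spike-in scaling (-0.68), for Rpl14 with centring (-0.24), spike-in scaling (-0.63) and the 3'/5' index (-0.12), and with spike-in scaling for Rps6 (-0.071), Rpsa (-0.10) and Rplp2 (-0.31). They also turned for Rps6 with the 3'/5' index (-0.28), for Rplp0 with the spike-in level (0.052) and the index (0.39), for Rps24 without _x_at and _s_at sets (-0.86), and for Rps20 with them left out (1.64), with its probe sets averaged (0.42) and with the index (0.033). Rpl6 turned with array weights (3.62e-05), the spike-in level (0.38), the index (0.66), without the 4 arrays (0.30) and without krill replicate 7 (0.075), within -0.21 to 0.075 when 1 array was left out. The causes were not tested, and some settings hold fewer arrays or genes. With the replicate number as a block, 27 were higher and 3 lower, with Rplp2 lost (limma adjusted p = 0.0509). In that fit 22.2% of all genes were higher, and 5253 of 11308 passed in either direction. The labels do not say whether the numbers pair the animals. Same-numbered arrays had correlations of -0.02 to 0.10 in their deviations, which cannot settle it. Detection above background was not available, which limits what can be said of the dim genes.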
